A study of Mus musculus with 140 samples.

Results

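The comparison set 8 samples of mouse embryonic stem cells carrying a short hairpin RNA (shRNA) against Tbx3 beside 8 samples carrying an shRNA against Tcl1, matched by day from day 0 to day 7. They were chosen by the regulator and the day in their labels, and they made up 16 of the 70 RNA samples of the study and 32 of its 140 arrays, since each RNA was hybridised to the A and the B array of the Affymetrix mouse 430 set. The samples analysed form 9 courses of CCE cells, a male stem cell line of the 129/Sv strain: 7 with shRNAs, 1 with the empty H1P vector, which served as the study's reference, and 1 with retinoic acid and without LIF. The Tbx3, Tcl1 and empty vector cells were all kept in LIF (leukaemia inhibitory factor, the cytokine that holds these cells undifferentiated) at 1000 units/ml. Transduced cells, marked by GFP, were sorted by flow cytometry as day 0, 48 hours after transduction, when the culture was replated, and then daily to day 7. The 8 samples of the empty vector are given where they help to place a value. Each course had 1 sample per day and the labels name no repeat transduction, so the hairpin, its culture and any technical batch cannot be told apart. The p-values of the fits measure only the spread of samples around smooth curves, part of which may be technical. The permutation tests of the hairpin targets instead take the 8 days of a course as separate samples, and dependence between days was not tested. Precision is limited by the number of arrays.

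Tbx3 is a T-box transcription factor that mostly represses its targets and that supports self-renewal of mouse embryonic stem cells. Tcl1 is a small protein that binds the kinase Akt and enhances its activity, and it is expressed in the early embryo, in germ cells and in stem cells. Both genes are active in undifferentiated mouse stem cells, and the comparison asks where the responses to the 2 hairpins differ.

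The hairpin targets were examined first. In the Tbx3 course the Tbx3 signal was 652, 108, 87.5, 11.3, 104, 124, 188 and 191 on days 0 to 7. In the Tcl1 course it was 1951, 1315, 827, 857, 549, 1333, 1492 and 1817 on the same days, and with the empty vector it ran from 668 to 1639. All 8 values of the Tbx3 course lay below the Tcl1 value of their day, and on days 4 to 7 the courses did not overlap. Over the 8 days Tbx3 was 7.98-fold lower in the Tbx3 course than in the Tcl1 course (8 of 8 days). By an exact permutation test that flips the signs of the daily differences, two-sided, p was 0.0078, the smallest that 8 days can give, and 0.018 after Benjamini-Hochberg adjustment over 18 tests. Against the empty vector it was lower by 2.96 on the log2 scale in the Tbx3 course, and the Tcl1 course differed from the empty vector by 0.03 (exact permutation p = 0.84). Of the 4 other Tbx3 probe sets, those that passed the filter on low signals gave differences between the knockdown courses of -1.51 and -0.35, each lower on 8 of 8 days, and those below it gave -0.16 and -0.03 (exact permutation p = 0.41 and 0.77). In the Tcl1 course the first of these probe sets differed from the empty vector by -0.19 (exact permutation p = 0.023, 0.035 after adjustment).

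Tcl1 was low in both courses. It gave signals of 1045, 1035, 930.5, 1020.2, 1564, 882, 1198 and 1577 on days 0 to 7 of the Tbx3 course. The Tcl1 course gave 933, 707, 609.5, 596, 903, 654, 832 and 1125, against 1792 to 3987 with the empty vector. Every sample of either knockdown was below the empty vector sample of its day, and the Tbx3 course was above the Tcl1 course on 8 of 8 days. Tcl1 was 1.42-fold higher in the Tbx3 course than in the Tcl1 course (exact permutation p = 0.0078), while it was 2.39-fold lower than the empty vector in the Tbx3 course and 3.40-fold lower in the Tcl1 course. Averaged over days 4 to 7 the difference between the knockdown courses was 0.52 ± 0.19 SE and did not pass (adjusted p = 0.105).

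**Figure D1:**
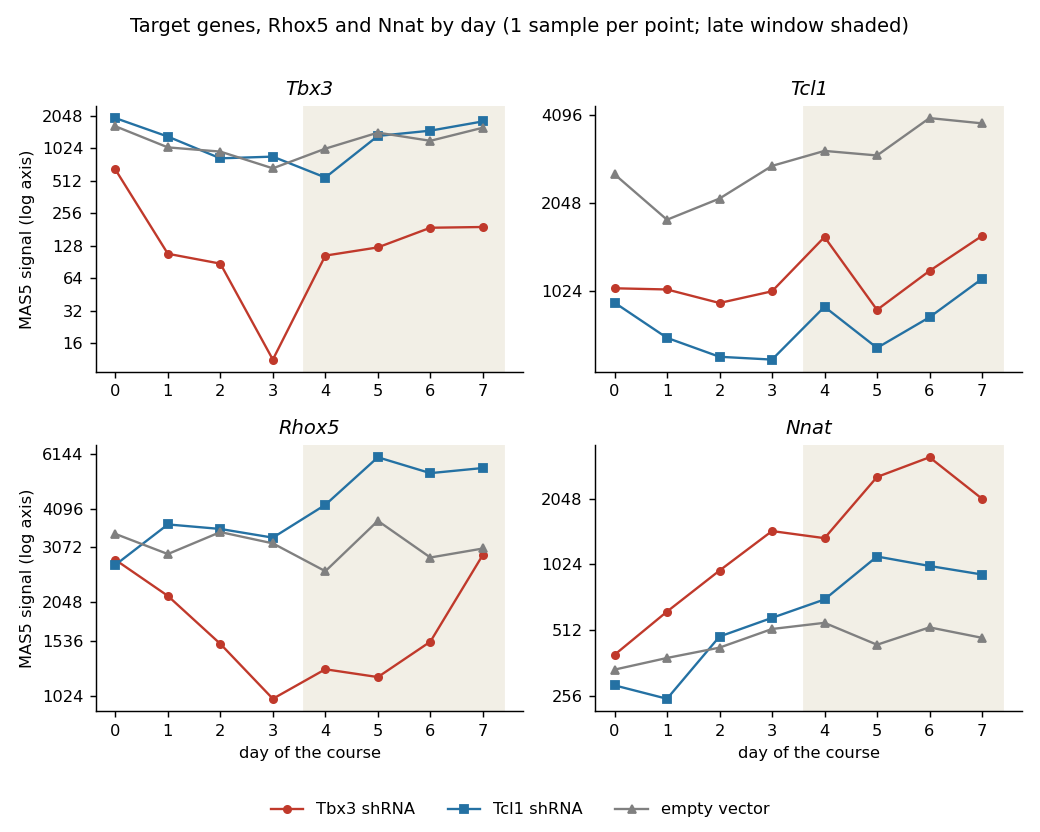
Deposited signal (log axis) of Tbx3, Tcl1, Rhox5 and Nnat on days 0 to 7, 1 sample per point, in the Tbx3 shRNA, Tcl1 shRNA and empty vector courses. Tbx3 is low in its own course alone, Tcl1 is below the empty vector in both knockdowns, Rhox5 separates after day 0, and Nnat climbs in both knockdowns and is highest with the Tbx3 shRNA.

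The transcriptomes were compared with 1 model over all courses, in which each gene followed a smooth curve over days in each course. The late difference is the mean of the Tbx3 curve over days 4 to 7 minus that of the Tcl1 curve, on the log2(signal + pseudocount) scale, where the pseudocount is the 20th percentile of the signals on that array type and understates the change of dim genes. A gene passed where limma's p, adjusted by Benjamini and Hochberg over the 14749 genes tested, was under 0.05. Of these genes 848 passed (5.75%), with 391 higher (2.65%) and 457 lower (3.1%) in the Tbx3 course, and 112 of them differed by at least 2-fold. Without day 7 of the Tbx3 course 210 genes passed, and without day 5, 6 or 7 of the Tcl1 course 483, 493 and 414, so the count leans on the samples at the end of the courses. Averaged over all 8 days, 800 genes were higher (5.42%) and 1149 lower (7.79%), 1949 in all (13.2%), against 1213 without day 0 and 1256 without day 7 of the Tbx3 course. On days 0 and 1 alone 325 genes passed (2.2%), against 19 without day 0 and 194 without day 1 of the Tbx3 course and 15 without day 0 of the Tcl1 course. Against the empty vector late in the courses, 1093 genes were higher (7.41%) and 1242 lower (8.42%) in the Tbx3 course, 2335 in all (15.8%). In the Tcl1 course 976 were higher (6.62%) and 1012 lower (6.86%), 1988 in all (13.5%). These last comparisons share the empty vector samples, and they too shrink without late samples: without its own day 5 or 7 the Tbx3 course gave 1533 and 1266 genes and the Tcl1 course 1182 and 1041. Without day 7 of the empty vector the counts were 1514 and 1154, and without its day 6 the Tcl1 course gave 1230. The median late difference over all genes was 0.02. Median signals of single arrays ran from 241 to 302 in the Tbx3 course, 255 to 306 in the Tcl1 course and 244.5 to 331 with the empty vector on the A array, and from 69.7 to 85.7, 64.5 to 87.3 and 80.9 to 106 on the B array.

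Markers of undifferentiated cells gave high signals in both courses, not all of them as high as with the empty vector. Pou5f1 (Oct4) had signals of 12433 to 17081 over the days of the Tbx3 course, 9881 to 16821 in the Tcl1 course and 14626 to 17590 with the empty vector. Nanog had 3361 to 6614, 2953 to 6242 and 6577 to 8314 in the same order of courses. Zfp42 (Rex1), which marks the naive state, ran from 4098 to 10463 in the Tbx3 course, from 2092 to 5802 in the Tcl1 course and from 5535 to 9010 with the empty vector. None of 6 identity markers (Pou5f1, Sox2, Nanog, Zfp42, Dppa5a and Utf1) passed between the knockdowns late in the courses. The late difference was 0.12 for Nanog, 0.21 for Pou5f1, 0.33 for Sox2, -0.01 for Esrrb and -0.13 for Dppa4, other regulators that the study's design names as targets, and none of these passed. No course of a Dppa4 knockdown is analysed here, and the course labelled Mm343880 enters only the joint fit. Over all 8 days Zfp42, named after its value was seen, was higher by 0.51 (adjusted p = 0.0069). For Sox2, whose late values did not overlap, the 95% interval of the fold ran from 1.02 to 1.55, and over all days it passed at 0.33 (adjusted p = 0.030).

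Within the pluripotency network a few members differed. Of 31 pluripotency genes tested, 4 were lower and 1 higher late in the Tbx3 course, and the median was 0.01. Among all genes tested 3.1% were lower and 2.65% higher. The 4 lower genes include Tbx3, the target of the hairpin, and the list also holds Tcl1. Against the shared empty vector, 11 of the 31 were lower and 1 higher late in the Tbx3 course (median -0.307). This stands beside 8.42% and 7.41% of all genes. In the Tcl1 course 10 were lower and 0 higher (median -0.285), beside 6.86% and 6.62%. Khdc3 (Filia), a maternal-effect protein that guards genome stability in mouse stem cells, had late signals of 884, 522, 862 and 1294 in the Tbx3 course, against 1917, 2048, 3157 and 3417 in the Tcl1 course and 4122 to 4909 with the empty vector. These ranges did not overlap, and Khdc3 was 3.04-fold lower (late difference -1.60 ± 0.15 SE, adjusted p = 9.7e-10) and already lower by 1.86 on days 0 and 1. Eras, a constitutively active Ras of stem cells that feeds the PI3 kinase pathway, had late signals of 557, 554, 596 and 507 in the Tbx3 course, against 999, 1459.5, 1442 and 1296 in the Tcl1 course and 1309 to 1735 with the empty vector. Eras was 2.18-fold lower (adjusted p = 2.9e-06), again without overlap. Dppa2, a chromatin protein of early embryos, was 2.39-fold lower (adjusted p = 0.00026) with 1839.6 to 3201 in the Tbx3 course and 3154 to 7164 in the Tcl1 course, which overlapped on day 7. These 3 calls held in each of 16 fits that left out 1 sample of either course. The higher gene, Klf2, a Krüppel-like factor of the naive state named after its value was seen, differed by 0.69 late (adjusted p = 0.023) and by 0.95 over all days.

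Rhox5 (Pem), an X-linked homeobox gene expressed in extraembryonic and male reproductive tissue, parted between the courses after day 0. Its signals on days 0 to 7 were 2805, 2148, 1507, 1004, 1249, 1179, 1531 and 2909 in the Tbx3 course. In the Tcl1 course they were 2701, 3643, 3523, 3304, 4211, 5984, 5322 and 5527, and with the empty vector they stayed between 2578 and 3741. The courses were close on day 0 and apart on every later day. The Tbx3 course was under the range of the empty vector on days 1 to 6 and the Tcl1 course above it from day 4 on. Rhox5 was 3.22-fold lower late (late difference -1.69 ± 0.12 SE, adjusted p = 2.6e-14), with -0.95 for the Tbx3 course and 0.74 for the Tcl1 course against the shared empty vector. On days 0 and 1 the difference was -0.32 and did not pass. Of 14 Rhox genes listed, 10 had no probe set assigned to them alone, and 4 were tested. Late, 2 of the 4 were lower and 0 higher, beside 3.1% and 2.65% of all genes. Besides Rhox5 the lower one was Rhox13, by 1.13, with late signals of 225 to 284 in the Tbx3 course against 408 to 691 in the Tcl1 course. That call was lost without day 7 of the Tbx3 course (adjusted p = 0.25) and in 4 further such fits. Rhox6 and Rhox9 differed by 0.16 and 0.37 and did not pass.

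Nnat, an imprinted gene expressed from the paternal allele and encoding a small membrane protein of neurons, moved the other way. On days 0 to 7 its signals were 395.5, 623.5, 960.3, 1456, 1351, 2572, 3165 and 2045 in the Tbx3 course. They were 287, 249, 479, 584, 708.5, 1114, 1008 and 921 in the Tcl1 course, and 338.5 to 554 with the empty vector. The Tbx3 course was higher on every day and neither course overlapped the other on days 4 to 7. Nnat was 2.31-fold higher late (1.21 ± 0.17 SE, adjusted p = 6.0e-06), and both knockdowns were above the shared empty vector, by 2.05 in the Tbx3 course and 0.84 in the Tcl1 course. Among 27 imprinted genes tested 4 were higher and 4 lower (median 0.12), beside 2.65% and 3.1% of all genes. The counts fell to 2 and 2 without day 7 of the Tbx3 course and to 3 and 1 without day 5 or 7 of the Tcl1 course. Peg3, a zinc finger protein expressed from the paternal allele, was higher by 0.99 with 876 to 1561 late in the Tbx3 course against 491 to 693 in the Tcl1 course, a call lost in 4 fits, for example without day 7 of the Tbx3 course (adjusted p = 0.57). Sgce, a sarcoglycan, was lower by 0.94 with 299.9 to 401 late in the Tbx3 course against 682 to 912.5 in the Tcl1 course, a call lost without day 7 of the Tcl1 course (adjusted p = 0.056).

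The 3 Dnmt3 genes of the primed epiblast list were lower late in the Tbx3 course. De novo methyltransferases set methylation marks that keep many germ line genes silent in mice. Dnmt3b, a de novo DNA methyltransferase, had signals of 5184, 8098, 9483, 9584, 6448, 5554, 4957 and 3866 on days 0 to 7 of the Tbx3 course. The Tcl1 course had 4121, 5112, 5132, 7870.4, 8566, 7578, 8834 and 8083, and with the empty vector 3159 to 4621. The Tbx3 course was the higher on days 0 to 3 and the lower on days 4 to 7, when the courses did not overlap. Dnmt3b was 1.59-fold lower late (-0.67 ± 0.11 SE, adjusted p = 7.7e-05), and its difference between the courses moved by -1.18 from days 0 and 1 to days 4 to 7 (adjusted p = 0.0011). That call on the shift was lost without day 0 of the Tbx3 course (adjusted p = 0.14) or of the Tcl1 course (0.38), with no spline (0.55) and on same-day differences (0.096). Dnmt3l, the catalytically inactive partner of the de novo enzymes, had late signals of 4001, 3486, 3047 and 2334 in the Tbx3 course, against 6063, 6655.5, 6055 and 4959.8 in the Tcl1 course and 4738 to 5071 with the empty vector. It was lower by 0.90 late (adjusted p = 0.00037) against a difference of 0.54 on days 0 and 1 that did not pass, a shift of -1.44 (adjusted p = 0.019). Dnmt3a was lower by 0.92 (adjusted p = 0.0019, and 0.062 without day 7 of the Tbx3 course). Its other probe sets gave -1.20, which passed, and -0.28, -0.39 and -0.03, which did not. All 3 belong to the list of primed epiblast genes, in which they were the only ones of 17 to pass late. None was higher, and the median was -0.15. Over all genes tested, 3.1% were lower late and 2.65% higher. The list did not lean this way earlier. On days 0 and 1, when 2.2% of all genes passed in either direction, 2 of its genes were higher and 0 lower. Its median was then 0.54. Over all 8 days 3 were higher and 1, Dnmt3a, lower, with a median of 0.18, beside 5.42% and 7.79% of all genes. Fgf5 and Otx2, the markers that define the primed state, differed by 0.01 and -0.64 and did not pass.

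Of 13 germ line genes tested 4 were lower late and 0 higher, beside 3.1% and 2.65% of all genes. Their median was -0.53 beside 0.02 for all genes. This list, like the others, was chosen with earlier results of these data known. Mael, a piRNA pathway protein that restrains transposons, had late signals of 193, 169, 204 and 180.3 in the Tbx3 course, against 349, 541, 620.3 and 498 in the Tcl1 course and 214 to 314.5 with the empty vector. It was 2.50-fold lower (late difference -1.32 ± 0.16 SE, adjusted p = 4.9e-07) with no overlap, and on days 0 and 1 the difference was -0.03. Tdrkh, a Tudor domain protein of the same pathway, was lower by 1.76, Tex19.1, which restrains retrotransposons in germ and stem cells, by 0.69, and Piwil2, a Piwi protein, by 0.64. Each of these 3 calls was lost in some fits that left out 1 sample (Tdrkh in 5, with adjusted p up to 0.15 without day 7 of the Tcl1 course, Tex19.1 in 3, up to 0.18 without day 7 of the Tbx3 course, and Piwil2 in 2, up to 0.091 without day 5 of the Tbx3 course), and the list held 2 lower genes without day 5 or 7 of either course. Over all 8 days 7 of the 13 were lower and 1 higher, beside 7.79% and 5.42% of all genes. In the alternatives tried 5 to 8 were lower. The members added by that wider window, named after their values were seen, were Ddx4 (-0.59), Tex14 (-0.60) and Mov10l1 (-0.52), all lower, and Prdm1 (0.47), a regulator of germ cell specification, which was higher. Fewer cells of a type and less RNA per cell cannot be told apart in such bulk samples.

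The promoters of 4 genes that mark this divergence are shown because Rhox5 and Mael are known in mice as genes held silent by promoter methylation and Nnat as an imprinted gene, beside Dnmt3b, an enzyme that sets such marks. The sequences run from 250 bases before to 50 after the annotated start in RefSeq's GRCm38.p6 annotation, 5′ to 3′ on the gene's strand, with each CpG dinucleotide in capitals. Rhox5 lies at chrX:37754358-37754657 (plus strand), Mael at chr1:166238695-166238994 (minus strand), Dnmt3b at chr2:153649199-153649498 (plus strand) and Nnat at chr2:157559828-157560127 (plus strand).
Rhox5: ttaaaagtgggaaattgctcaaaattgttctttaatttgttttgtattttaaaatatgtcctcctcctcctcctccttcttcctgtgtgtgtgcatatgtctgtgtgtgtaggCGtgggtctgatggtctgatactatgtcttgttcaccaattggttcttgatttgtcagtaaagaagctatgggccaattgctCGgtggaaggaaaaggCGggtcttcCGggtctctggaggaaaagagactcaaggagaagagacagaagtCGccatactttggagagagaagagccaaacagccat
Mael: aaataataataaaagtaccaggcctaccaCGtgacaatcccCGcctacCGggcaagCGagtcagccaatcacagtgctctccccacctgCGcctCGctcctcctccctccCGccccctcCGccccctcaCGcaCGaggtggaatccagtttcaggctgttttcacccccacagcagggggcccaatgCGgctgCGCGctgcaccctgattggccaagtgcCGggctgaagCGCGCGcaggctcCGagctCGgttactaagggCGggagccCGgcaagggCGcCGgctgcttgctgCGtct
Dnmt3b: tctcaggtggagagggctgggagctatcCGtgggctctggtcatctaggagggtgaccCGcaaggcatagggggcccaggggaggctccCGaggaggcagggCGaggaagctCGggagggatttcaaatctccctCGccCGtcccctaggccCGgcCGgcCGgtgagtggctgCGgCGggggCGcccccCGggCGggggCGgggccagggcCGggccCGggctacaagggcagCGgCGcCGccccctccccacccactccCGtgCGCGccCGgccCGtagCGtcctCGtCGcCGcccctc
Nnat: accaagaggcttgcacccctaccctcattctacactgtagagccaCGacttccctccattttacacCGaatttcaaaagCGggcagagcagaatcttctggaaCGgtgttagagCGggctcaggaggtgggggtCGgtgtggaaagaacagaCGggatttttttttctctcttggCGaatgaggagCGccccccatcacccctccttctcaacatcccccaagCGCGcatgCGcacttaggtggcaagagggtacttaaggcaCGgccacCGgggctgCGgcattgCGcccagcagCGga

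These windows differ in CpG content. Rhox5 had 5 CpG, a count reached by 62.0% of 32851 promoters of this length in the table, whereas Mael had 24 (reached by 19.98%), Dnmt3b 30 (11.7%) and Nnat 17 (31.4%). The median over all these promoters was 7 CpG. Over the genes tested it was 20, taking the promoter of each gene with the most CpG, so Nnat lay below that median. The T-box core GGTGTGA, read on both strands, was in none of the 4 windows. It was in the promoters of 16 of 381 genes lower in the Tbx3 course (4.2%), 11 of 318 higher (3.46%) and 505 of all 11841 genes tested that have a promoter in the table (4.26%). No test was made of these shares, and nothing about Tbx3 binding follows from these letters. No methylation was measured in these samples.

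The difference between the courses changed with time in 11 genes (0.0746%), 5 upward and 6 downward. Besides Rhox5, Dnmt3b, Dnmt3l and Mael, the downward ones were Pou3f1 (Oct6), a POU factor of the primed epiblast and of neural cells, with a shift of -1.82, and Ryk, a Wnt receptor, with -1.74. Ryk had 686 to 1472 over the Tbx3 course, against 127, 127 and 83.6 on days 0 to 2 and 501 to 894 from day 3 on in the Tcl1 course and 329 to 897 with the empty vector. The difference was 2.43 on days 0 and 1 and 0.69 late, and the late call was lost in 7 fits (adjusted p = 0.21 without day 7 of the Tbx3 course). The upward ones were Col1a2, Lrrc34 (1.63), Mt1 (1.503), a metallothionein, Tfap2c (1.296) and Macroh2a1 (1.24). Col1a2, a chain of type I collagen, had 544.5, 1671, 3577 and 4003 on days 4 to 7 of the Tbx3 course, against 816, 524.5, 429.6 and 419 in the Tcl1 course and 352 to 471 with the empty vector. The courses crossed between days 4 and 5, so the late ranges overlapped, and the shift was 2.27 (adjusted p = 0.010). Tfap2c, a factor of trophoblast and germ cells, had 533 to 1919 over the Tbx3 course with its highest values on days 6 and 7, against 907 to 1487 over the Tcl1 course and 801 to 1034 with the empty vector. All 11 shifts kept their sign in 27 of 27 alternatives. These refit the same samples for genes picked by this shift, so the kept sign is no further support. None passed when days were averaged without a curve, or when day 0 of either course was left out. Mt1, Pou3f1 and Mael, each at limma's adjusted p = 0.049 in the main fit, passed in 6, 6 and 10 of the 27. Col1a2, Dnmt3b and Rhox5 each passed in 23. On same-day differences Dnmt3l alone passed (adjusted p = 0.037), with 0.25 for Rhox5 and 0.39 for Col1a2.

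**Figure D2:**
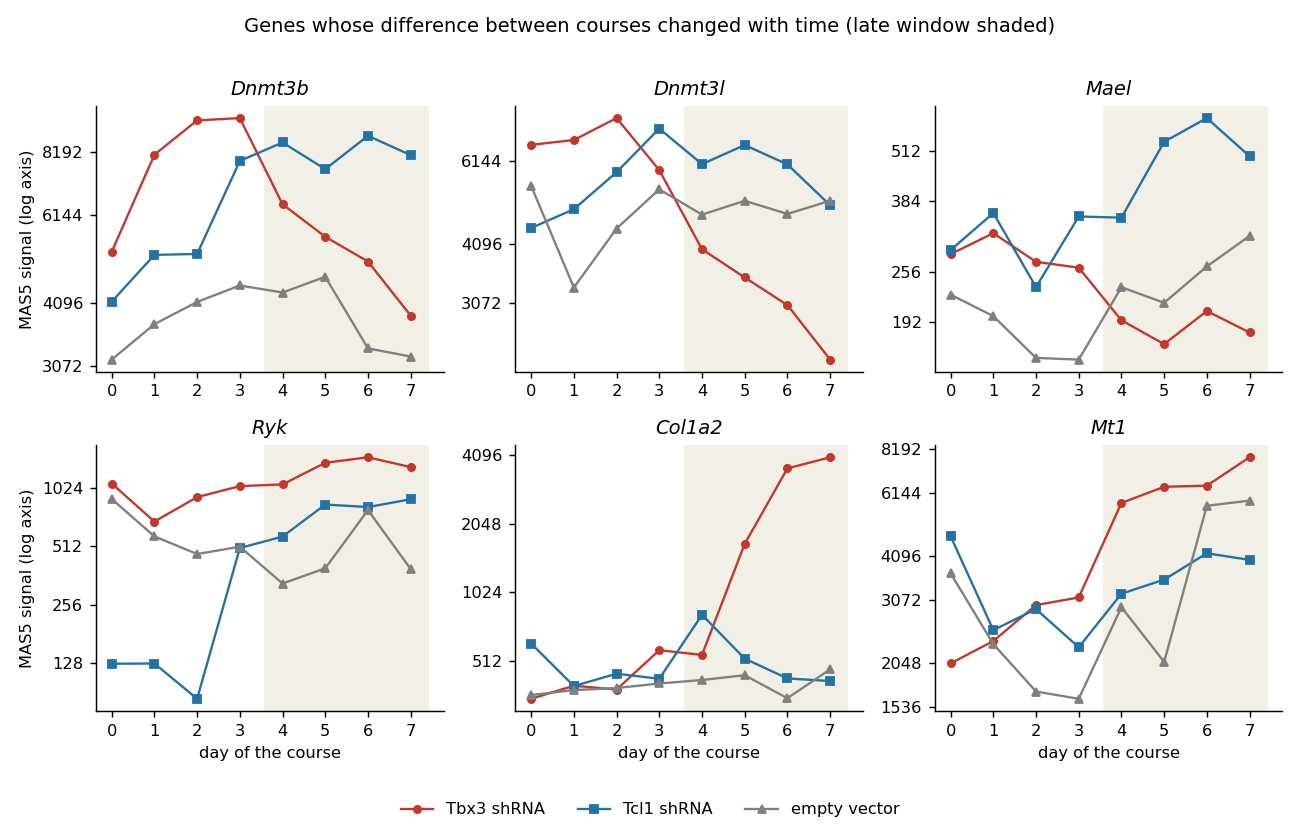
Deposited signal (log axis) on days 0 to 7, 1 sample per point, of 6 of the 11 genes whose difference between the Tbx3 shRNA and Tcl1 shRNA courses changed with time, with the empty vector course. Dnmt3b and Dnmt3l are lower with the Tbx3 shRNA on days 4 to 7, as is Mael, Ryk is higher with the Tbx3 shRNA on every day, and Col1a2 and Mt1 are higher with the Tbx3 shRNA at the end.

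Beyond these groups, the largest late differences were taken as the 12 highest and 12 lowest genes that passed with the same sign on each of days 4 to 7, which leaves out Col1a2 (late difference 1.85, with day 4 of the other sign). Folds ran from 2.55 to 4.11 among the higher and from 2.86 to 7.89 among the lower genes. Late values of the courses did not overlap in 10 of the higher and 11 of the lower genes, the latter with Tbx3, the target of the hairpin. The genes were picked by these same late values, so this separation follows largely from the choice and is no further support. Among all genes tested, 3.8% had all late Tbx3 values above and 4.96% all below the late Tcl1 values. The call held in each of the 16 fits that left out 1 sample in 9 of the 12 lower genes and in 3 of the 12 higher ones.

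The lower genes were led, after Tbx3, by Prdx3. Prdx3, a mitochondrial peroxiredoxin that removes hydrogen peroxide, had 198, 264, 246, 249.6, 360.2, 197, 294 and 371 on days 0 to 7 of the Tbx3 course. Its lowest, median and highest values were 1155, 1225 and 1547 in the Tcl1 course, and 972 to 1252 with the empty vector. Every sample of the Tbx3 course lay below every sample of the others from day 0 on. Prdx3 was 3.75-fold lower late (-1.91 ± 0.11 SE, adjusted p = 1.9e-16) and lower by 2.24 on days 0 and 1. Dusp6, the phosphatase that switches off ERK and is induced by it, had 755, 1476.5, 1229.8 and 913 late in the Tbx3 course, against 3784, 4277, 3143 and 2148 in the Tcl1 course and 1383 to 2081 with the empty vector. The knockdown courses did not overlap, and Dusp6 was 2.87-fold lower (adjusted p = 2.7e-06). Against the shared empty vector it was lower by 0.68 in the Tbx3 course and higher by 0.85 in the Tcl1 course. Spry2, another feedback inhibitor of the same pathway, was lower by 0.56 (adjusted p = 0.023, lost in 5 fits and 0.21 without day 7 of the Tbx3 course). Of 19 genes of FGF signalling and ERK feedback 2 were lower and 1, Fgf8, higher, beside 3.1% and 2.65% of all genes. The median was 0.03, and Fgf8 lost its call in 4 fits (adjusted p = 0.50 without day 7 of the Tcl1 course). Vps45, which directs vesicle fusion at endosomes, was 3.45-fold lower with 36.6 to 222 in the Tbx3 course against 349 to 527 in the Tcl1 course, Spink1, a protease inhibitor, 2.93-fold lower, Gpr4, a proton-sensing receptor, 2.87-fold lower, and Gpr160, an orphan receptor, 2.86-fold lower. Tdrkh, Galnt6 (an enzyme of mucin-type glycosylation, 3.34-fold) and Tafa4 (2.91-fold) complete the lower set, and each lost its call in at least 1 fit (Galnt6 without day 7 of the Tbx3 course, adjusted p = 0.18, and Tafa4 in 4 fits, up to 0.13 without day 6 of the Tcl1 course).

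Among the higher genes, Id4, an inhibitor of basic helix-loop-helix factors that responds to BMP, had 558, 464, 509 and 894 late in the Tbx3 course, against 32.3, 32.4, 127 and 274 in the Tcl1 course and 158.5 to 362 with the empty vector. Id4 was 4.11-fold higher (adjusted p = 4.1e-05), and the Tcl1 course was lowest on days 4 and 5. Another Id4 probe set passed at 1.73-fold. Of 16 genes of BMP signalling and Id factors 2 were higher (Id4 and Bmp7) and 2 lower (Bmp4 and Smad6), with a median of 0.05. The shares of all genes were 2.65% higher and 3.1% lower. Bmp4 itself, a ligand of the pathway, was lower by 0.98 late and by 1.29 on days 0 and 1, with late signals of 374 to 699 in the Tbx3 course against 1060.0 to 1458 in the Tcl1 course. Its late call was lost without day 7 of either course (adjusted p = 0.10 in both), and those of Bmp7 and Smad6 without day 7 of the Tbx3 course (adjusted p = 0.17 and 0.16). Tmem263 had 714.5 to 1193 late in the Tbx3 course, against 166 to 192 in the Tcl1 course and 336 to 547 with the empty vector, and was 4.03-fold higher (adjusted p = 2.7e-07). Another Tmem263 probe set, on the A array, gave a late difference of the other sign, -0.435, and did not pass. App, the amyloid precursor protein, had 641, 1046, 1678 and 1666 late in the Tbx3 course, against 306, 279, 402 and 709 in the Tcl1 course and 42.5 to 138 with the empty vector. App was 2.75-fold higher (adjusted p = 7.0e-05), it was above the shared empty vector by 3.25 in the Tbx3 course and 1.79 in the Tcl1 course, and the highest Tcl1 value passed the lowest Tbx3 value. The other 9 were Dyrk2, Adgrg1, Tspyl4, Gm26911, E230025N22Rik, Ulk4, Pdzk1, Vldlr and Sh3bgrl, at 2.55- to 3.92-fold, and all of them lost the call in at least 1 of these fits. For Ulk4 and Vldlr the mean over the gene's probe sets on the same array type that passed the filter did not pass either (adjusted p = 0.89 and 0.54).

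**Figure D3:**
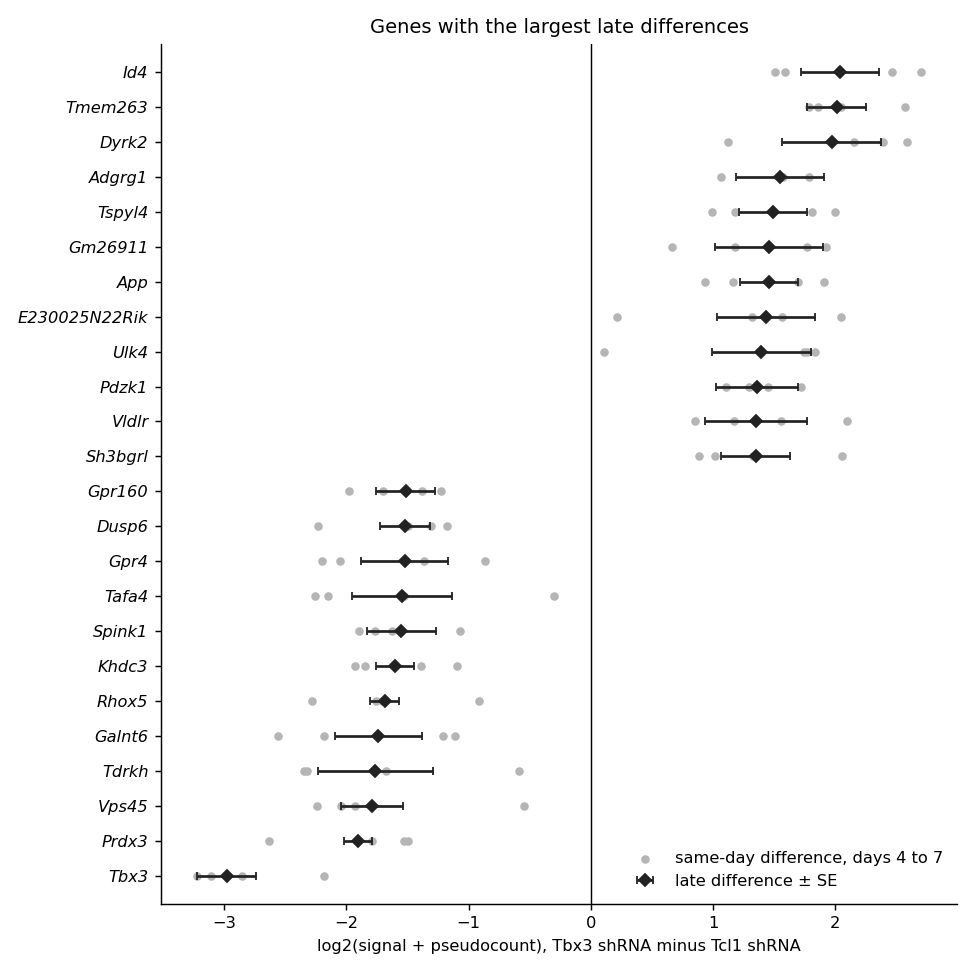
The 12 highest and 12 lowest late differences among genes that passed and had the same sign on each of days 4 to 7, in log2(signal + pseudocount), Tbx3 shRNA minus Tcl1 shRNA. Diamonds are the fitted late difference with its SE, and grey points are the same-day differences on days 4 to 7, whose shared sign was part of the selection.

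Genes of the contractile cytoskeleton were tested as a list of 17, of which 9 were higher than the empty vector late in the Tbx3 course (median 0.57) and 12 in the Tcl1 course (median 1.37), with the empty vector samples shared. Among all genes 7.41% and 6.62% were higher than the empty vector in these courses. Between the courses 5 of the 17 were lower and 0 higher, beside 3.1% and 2.65% of all genes. Their median was -0.63, the lowest of the 32 lists. The lists were chosen with earlier results of these data known, so the counts and this rank are no independent support. Acta2, smooth muscle actin, had 967, 1708, 3572, 5548, 4621, 6404, 7076 and 5103 on days 0 to 7 of the Tbx3 course. It had 1636, 2311, 5265, 11936, 14031, 14369.9, 10523 and 7395 in the Tcl1 course, and 795 to 1879 with the empty vector. Acta2 was lower with the Tbx3 shRNA on 8 of 8 days and 1.92-fold lower late (adjusted p = 0.014). Another Acta2 probe set, on the B array, gave a late difference of 0.62 and did not pass. Acta1, skeletal muscle actin, was lower by 1.08, Myl9, a myosin light chain, by 0.97, Cnn1 (calponin) by 0.93, and Actg2, an enteric actin named after its value was seen, by 0.63, while Tagln (-1.07) and Actc1 (-0.82) did not pass. These counts rest on the last samples: without day 7 of the Tbx3 course 0 of the 17 passed, with adjusted p = 0.33 for Acta2, 0.24 for Myl9, 0.58 for Acta1 and 0.79 for Cnn1, without day 7 of the Tcl1 course 1 did, and without day 4 or 5 of the Tbx3 course or day 5 or 6 of the Tcl1 course 2 did. Over all 8 days 6 were lower and 0 higher, beside 7.79% and 5.42% of all genes, and 2 to 8 were lower in the alternatives tried.

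**Figure D4:**
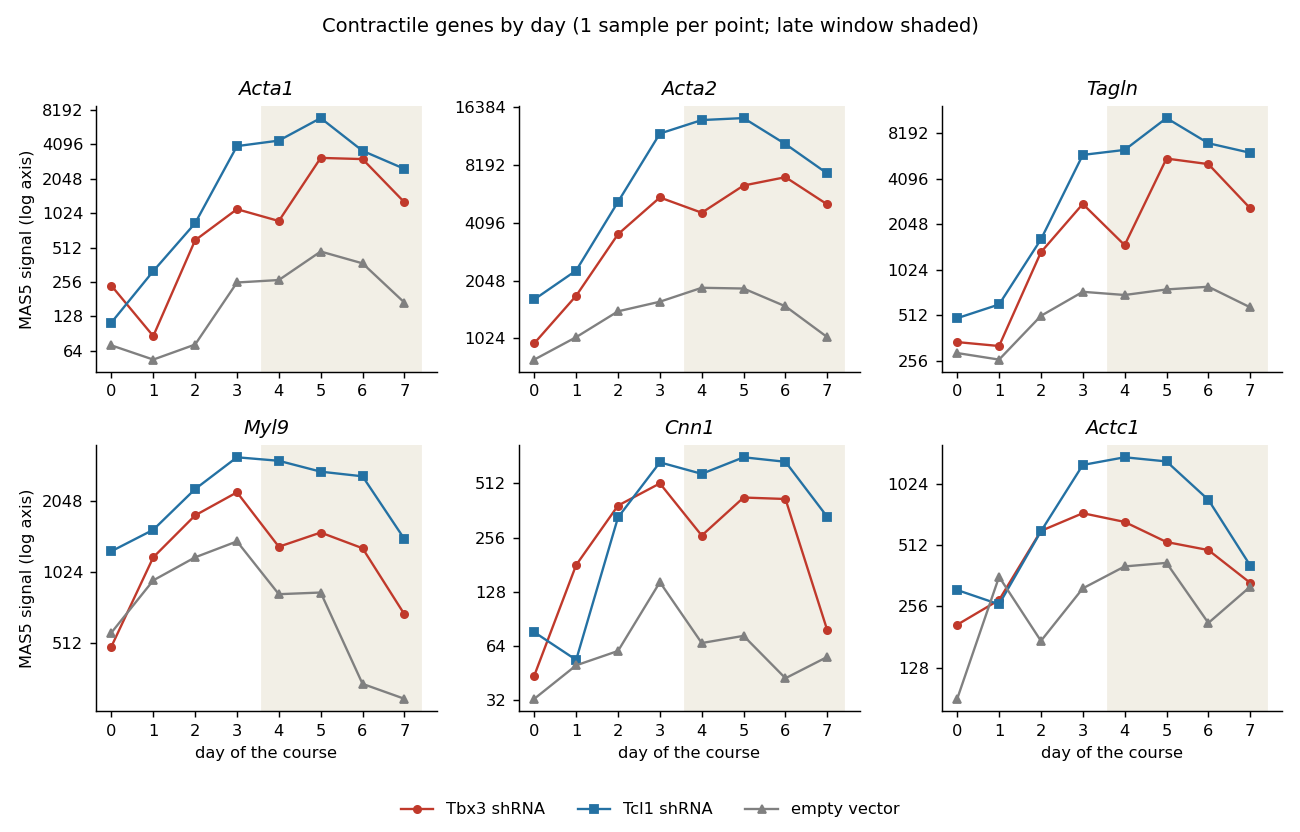
Deposited signal (log axis) of 6 contractile genes on days 0 to 7, 1 sample per point, in the Tbx3 shRNA, Tcl1 shRNA and empty vector courses. On each of days 4 to 7 all 6 signals are lower with the Tbx3 shRNA than with the Tcl1 shRNA.

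Of 18 interferon-responsive genes tested 3 were higher and 0 lower late, with a median of 0.12, beside 2.65% and 3.1% of all genes. Psmb8, an immunoproteasome subunit, had 640.3, 610.4, 587 and 346 late in the Tbx3 course, against 269.7, 163, 244 and 268 in the Tcl1 course and 30.4 to 55.5 with the empty vector. It was 2.02-fold higher (adjusted p = 0.013). Ifitm1 and Ifitm3, transmembrane proteins that mark germ cells and stem cells as well as interferon-treated cells, were higher by 0.63 and 0.54. None of the 3 passed without day 7 of the Tbx3 course (adjusted p = 0.086, 0.31 and 0.16), or without day 5 or 6 of the Tcl1 course. Ifit1 and Oas1a, which interferon induces strongly, differed by -0.08 and 0.03 and did not pass. Over all days Irf1 (0.39), named after its value was seen, joined these 3, and 3 to 5 members were higher in every alternative. In that window 5.42% of all genes were higher.

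Of 32 genes of the PI3 kinase pathway and Akt, the kinase that Tcl1 assists, 1 was lower and 0 higher, with 25 of the 32 differences positive and a median of 0.12, beside 3.1% lower and 2.65% higher among all genes tested. The lower one, Inpp5d (SHIP1), a phosphatase that opposes PI3 kinase, had 624 to 1129 late in the Tbx3 course, against 1049 to 1845 in the Tcl1 course and 1212 to 1834 with the empty vector. It was lower by 0.68 (adjusted p = 0.0054, and 0.14 without day 7 of the Tcl1 course). Akt1 and Akt2 differed by 0.43 and 0.14 and did not pass. Of 22 FoxO target genes, which Akt holds down through the FoxO factors, 2 were higher. Txnip, an inhibitor of glucose uptake, had 3545 to 5778 late in the Tbx3 course, against 1546 to 3009 in the Tcl1 course and 2315 to 7545 with the empty vector, a 2.21-fold difference (adjusted p = 0.0023, and 0.067 without day 7 of the Tbx3 course). In the Tcl1 course Txnip was lower than the empty vector by 1.12 and in the Tbx3 course it differed by 0.03. Trib2, a pseudokinase, was higher by 0.79 (adjusted p = 0.0036, and 0.10 without day 7 of the Tbx3 course). Of 8 inhibitors of cyclin-dependent kinases, Cdkn2a alone passed. It was lower by 0.48 but above the empty vector in both courses, by 0.84 in the Tbx3 course and 1.32 in the Tcl1 course, and its call was lost in 7 fits (adjusted p = 0.29 without day 7 of the Tbx3 course).

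Markers of other cell types were measured alongside. For comparison with these lists, 3.1% of all genes tested were lower late and 2.65% higher. Of 21 trophectoderm genes 2 were lower (Cdx2 by 1.41 and Esx1 by 0.85) and 0 higher, with a median of 0.14. Cdx2 had 24.6 to 250.5 late in the Tbx3 course, against 169 to 565 in the Tcl1 course, and its call was lost in 4 fits and that of Esx1 without day 7 of either course. Another Cdx2 probe set differed by -0.30 and did not pass. The summed signal of the list ran from 8337 to 49256 over the Tbx3 course, from 9463 to 37119.9 over the Tcl1 course and from 9778 to 16521 with the empty vector. Elf5 and Tpbpa, which define trophoblast, were below the filter. Of 25 extraembryonic endoderm genes 1, Apoe, was higher and 2, Gata6 and Dab2, lower (summed signal 14979.7 to 32304, 18981 to 27823 and 15399 to 26888 in the Tbx3, Tcl1 and empty vector courses). Gata6, a master factor of primitive endoderm, was lower by 0.85 with 113 to 257 late in the Tbx3 course against 298 to 459.8 in the Tcl1 course, a call kept in all 16 fits, while Afp was below the filter. Other Gata6 probe sets differed by -0.52 and 0.78 and did not pass. Of 13 mesoderm genes 1 was higher (Fgf8) and 1 lower (Bmp4), of 11 neuroectoderm genes none passed, and Evx1, Gsc, Pax3 and Olig2 were below the filter. Fibroblast and matrix genes had 2 higher (Col1a2 and Fn1) and 1 lower (Vim) of 19, with summed signals of 17553 to 28168.5, 18843 to 23479 and 16369.7 to 21389.5 in the same order, and S100a4, Lum and Fap were below the filter. None of 6 blood genes passed (summed signal 1334 to 2360.1, 1516 to 2417 and 1896 to 2382), and Ptprc, Itgam, Spi1 and Hba-a1 were below the filter. Of 7 endothelial genes Tek was higher and Esam lower (summed signal 2142 to 2845, 2668 to 3879 and 2502 to 3814), and Tie1 was below the filter. Of these calls Apoe lost its own in 2 of the fits, Dab2 in 7, Fn1 in 6, Vim in 13 (adjusted p = 0.80 without day 7 of the Tbx3 course) and Tek in 1, while Esam kept it. The part of any admixed cells in the differences was not tested.

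**Figure D5:**
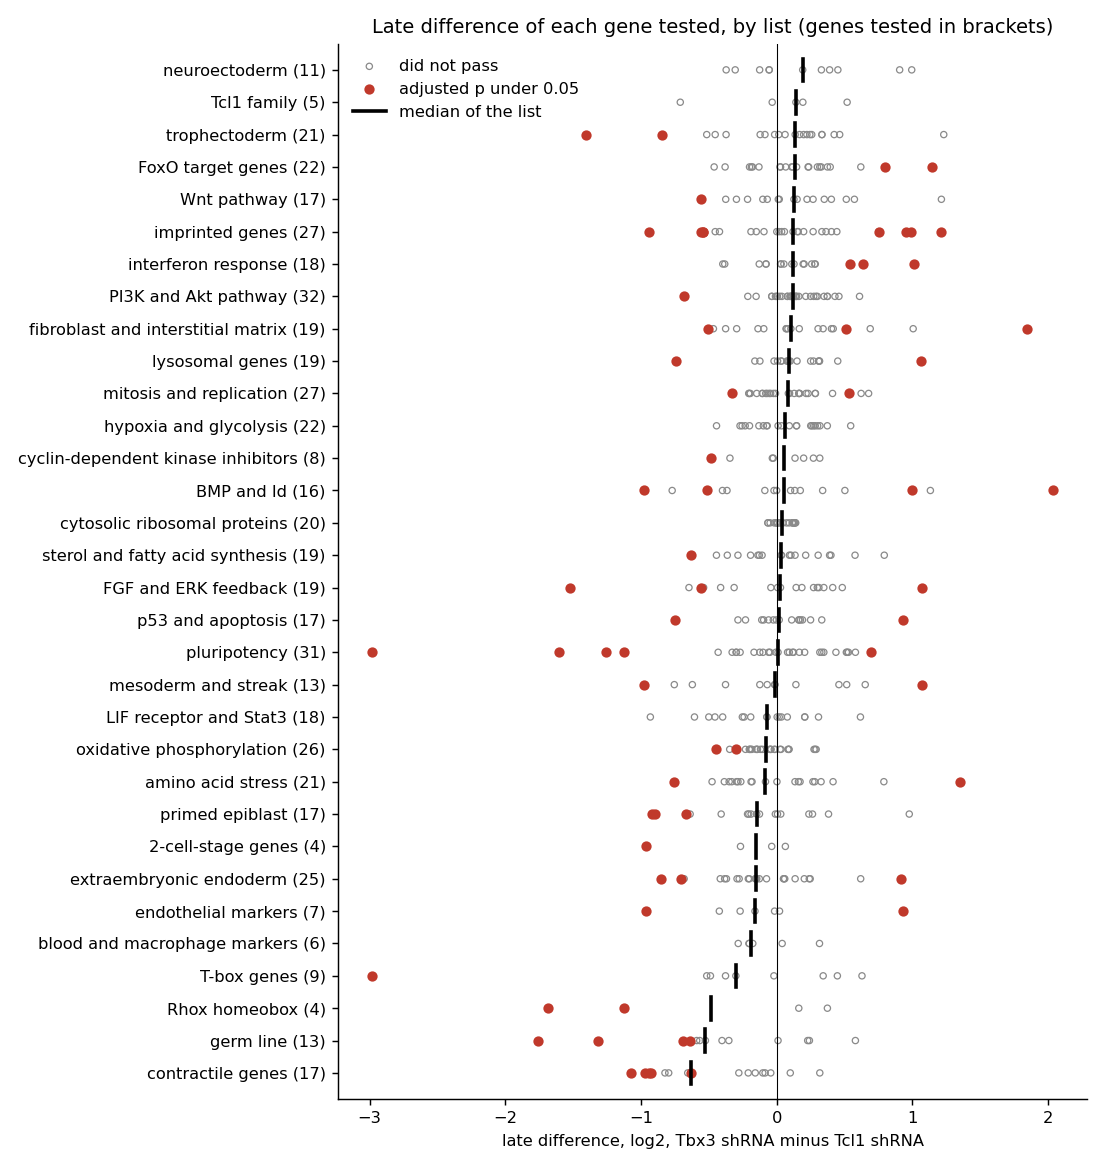
Late difference (log2, Tbx3 shRNA minus Tcl1 shRNA) of every gene tested in 32 lists, ordered by their medians (bars), with genes that passed in red and the others open. The contractile, germ line and Rhox lists have the lowest medians (-0.63, -0.53 and -0.48), the last over only 4 genes tested. The other medians run up to 0.19, beside 0.02 for all genes. The lists were chosen with earlier results of these data known.

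Among the metabolic and stress lists some held no gene that passed and others 1 or 2, beside 5.75% of all genes tested. None of 20 cytosolic ribosomal proteins, 22 genes of hypoxia and glycolysis, 18 of LIF and Stat3 signalling or 5 of the Tcl1 family passed late, with medians of 0.04, 0.06, -0.07 and 0.14. Of 26 oxidative phosphorylation genes Ndufv2 (-0.45) and Ndufs3 (-0.30), subunits of complex I, were lower. Ndufv2 had 5742 to 6946 late in the Tbx3 course, against 8437 to 9136 in the Tcl1 course and 8508 to 10019.5 with the empty vector, and its call was lost without day 7 of the Tcl1 course (adjusted p = 0.067). Over all 8 days 6 genes of this list were lower and 1, Ndufa4, higher, beside 7.79% and 5.42% of all genes. Of 27 genes of mitosis and replication Rrm1, a subunit of ribonucleotide reductase, was higher by 0.53 with 5049.8 to 6197 late in the Tbx3 course against 3607 to 4568 in the Tcl1 course, a call kept in all 16 fits, and Aurka, a mitotic kinase, was lower by 0.33, a call lost in 6. Another Rrm1 probe set differed by 0.09 late and did not pass. Of 21 genes of amino acid stress Vldlr was higher and Slc7a3, a transporter of cationic amino acids, lower by 0.75 with 3015 to 3689.9 late in the Tbx3 course against 5659 to 6596 in the Tcl1 course, lost without day 7 of the Tbx3 course (adjusted p = 0.082). Of 17 p53 and apoptosis genes Ei24 was lower by 0.75, a call kept in all 16 fits, and Trp53inp1 higher by 0.93, a call lost in 6. Tbx3 was the only one of 9 T-box genes to pass. In the remaining lists Usp17la (-0.96) was lower among 4 genes of the 2-cell stage, Wnt7b (-0.56) among 17 Wnt pathway genes and Lss (-0.63) among 19 of sterol and fatty acid synthesis, with none higher. Among 19 lysosomal genes Lamp2 (1.06) was higher and Ctsc (-0.74) lower. All 5 calls were lost without day 7 of the Tbx3 or of the Tcl1 course, with adjusted p = 0.15 for Usp17la, 0.26 for Wnt7b, 0.33 for Lss, 0.48 for Lamp2 and 0.22 for Ctsc.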

How the data were processed

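Total RNA of sorted cells was hybridised as biotin-labelled cRNA to Affymetrix MOE430A and MOE430B arrays. The deposited intensity values are MAS5 signals per probe set, per the submitters' processing notes, with the version not given in the sources used here, and the trimmed mean of 100 control probe sets shared by both array types is 2500 on every array. Of 45265 probe sets, 35041 carry 1 gene symbol, 936 several and 9160 none, and 128 are controls. Signals were kept as deposited and transformed as log2(signal + pseudocount), with pseudocounts of 63.1 (A) and 21.8 (B), the 20th percentile of each table, which understates changes of dim genes. The filter kept 32992 probe sets above the table median on at least 3 of 70 arrays. Of those with 1 gene symbol, 1 probe set per gene was tested (14749 genes).

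limma 3.58.1 in R 4.3.3 was fitted to all 9 courses, A and B apart, with a natural cubic spline (3 degrees of freedom) per course, with Benjamini-Hochberg adjustment across the genes of both arrays together and a threshold of 0.05. Targets were tested with exact sign-flip permutation tests over days. Genes are named where they are Tbx3, Tcl1, Rhox5, Nnat or another targeted regulator, among the 12 highest or 12 lowest late differences with 1 sign on days 4 to 7, among up to 4 passing and 2 other members of each of 32 gene lists, or among the 5 largest changes with time in each direction, and others are marked as named after their values were seen. The members and lists were chosen with earlier results of these data known. Day numbers pair the samples only in name: same-day residual correlations ran from -0.015 to 0.137. Alternatives were other pseudocounts, no filter, quantile normalization, the mean of probe sets, fewer or no spline terms, only the 2 courses, no intensity trend, a day block, and leaving out each sample. The mean of probe sets took those of a gene that passed the filter on the array type of the one used. Array quality weights were added after seeing the data. Promoter sequences and updated symbols come from RefSeq (GRCm38.p6).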

Additional observations from a re-analysis of the deposited data

Results flagged for a closer look

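On days 4 to 7, 6 of the 80 groups of 4 values examined held a value far from the other 3, where chance gives about 1 in 20 (5%), and all 6 fell on day 5. In the Tbx3 course these were the lowest Esrrb signal, 1222.2, and the highest Tmem263 signal, 1192.9. In the Tcl1 course they were the lowest Pdzk1 signal, 40.7, and the highest signals of Prdx3 (1547.2), Vps45 (527.0) and Tdrkh (441.4).

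The difference between the Tbx3 and Tcl1 courses was not the same late as early for 11 genes, by limma's test of the late minus the early difference. The change, in log2, was -1.824 for Pou3f1, -1.743 for Ryk, -1.44 for Dnmt3l, -1.367 for Rhox5, -1.287 for Mael and -1.178 for Dnmt3b. It was 2.268 for Col1a2, 1.625 for Lrrc34, 1.503 for Mt1, 1.296 for Tfap2c and 1.24 for Macroh2a1. The cause of these changes was not tested.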

How the results depend on the processing

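The 78 named genes that passed late kept their direction under every alternative, while Esrrb, Pou3f1, Cdh5 and Lyz2, which did not pass, changed sign under some. Their direction held less well across probe sets. Of 50 other probe sets of these genes that passed the filter, 37 had the same sign as the one used. With that sign 14 passed, and 0 passed with the opposite sign. With no spline 371 genes passed late, 92 early and 0 for the change with time, and 1531 and 1156 passed for the Tbx3 and Tcl1 courses against the shared empty vector. A spline with 2 degrees of freedom left 4 changes. The fit of only the 2 courses gave 216 early genes and 6 changes. Taking same-day differences as a replicate block gave 668 late genes (355 higher and 313 lower, in place of 391 and 457), 204 early genes and 1 change, Dnmt3l, although only 4 of 8 days correlated best with their own number. Leaving out 1 sample gave 210 to 863 late genes, 1213 to 1852 over all days, 15 to 344 early, 1 to 16 changes, 1266 to 2327 for the Tbx3 course against the empty vector and 1041 to 2024 for the Tcl1 course. The causes were not tested, beyond the fewer samples each such fit holds. Quantile normalization moved the median of all genes by 0.10 early and by -0.14 for the change, and it gave 307 higher and 486 lower genes late, while early the split was 113 and 115 in place of 113 and 212, and for the Tcl1 course against the empty vector 1027 and 784 in place of 976 and 1012. Of 78 named genes that passed late, 23 kept the call in every fit that left out 1 sample, while 35 lost it with no spline, 11 with the replicate block and 48 without day 7 of the Tbx3 course. With the mean of probe sets 7 lost it: Ulk4, Vldlr, Peg3, Bmp7, Trp53inp1, Dab2 and Vim. A Tbx3 probe set below the filter differed by -0.22 between the Tbx3 course and the empty vector (exact permutation p = 0.0625).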
